A study of Mus musculus with 15 samples.

Results

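Pseudouridine (Ψ) is an isomer of uridine in which the base is joined to the sugar by carbon instead of nitrogen, and it is made from uridine in RNA by Ψ synthases. piRNAs are small RNAs that guide PIWI proteins against transposons and other transcripts in the germ line. In the testis most of them are cut from long single-stranded precursors transcribed from piRNA clusters, usually start with uridine, and are trimmed at the 3′ end to the length that the PIWI protein protects.

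The piRNA loci described here were those concentrated in the Ψ-bound fraction of mouse testis small RNA. A locus was a genomic interval of defined start, end and strand, and its level was the deposited read count divided by the total of the library, in CPM (counts scaled to a library total of 1e6). Loci were kept if they had at least 60 raw counts over the 3 Ψ-IP libraries and if their lowest Ψ-IP level was at least 2 times the highest level in any of the 3 input and 3 flow-through libraries. This was met by 5210 loci, 4.53% of the 114954 loci with 60 or more Ψ-IP counts, out of 5630367 loci in these 9 libraries and 8128951 loci in all 15. As Ψ-IP, input and flow-through levels chose the loci, they are given as a description without a test. CMC-treated and mock-treated libraries took no part in the choice and were tested.

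All 15 libraries came from testes of male C57Bl/6 mice aged 8 weeks, with 3 libraries per group. In the Ψ-IP set, small RNA was split into input, the fraction recovered with the anti-Ψ antibody D347-3 (Ψ-IP) and the unbound flow-through. In the CMC set, small RNA was treated with CMC, which reacts with Ψ and blocks reverse transcription, or was mock-treated (also labelled untreated). The labels give gel-cut RNA of 17 to 40 nt, and name one library kit for the CMC set and another for the Ψ-IP set, so levels were compared within a set only. It is not stated if replicates are different mice, so their spread may be technical. Totals ranged from 11575705 to 25063656 counts in the Ψ-IP set and from 24154811 to 58399368 in the CMC set. Reads without molecular identifiers are not independent molecules. How reads with several alignments were counted is not stated, so the position of a locus inside a repeat is uncertain.

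Sequences could be read from GENCODE exons of GRCm38 (the mm10 assembly) for loci inside annotated exons. The following loci on noncoding exons are printed to show how the bound fraction differed between piRNAs with one 5′ end, at chr4:135628990 on the plus strand in 1700029M20Rik. Capitals mark every uridine, written as T. This 5′ end was chosen after values were seen, as the noncoding exon 5′ end with most Ψ-IP counts among those considered for printing, with at least 2 loci inside and 2 outside the limit.
28 nt: TaaaTaaaTgTgcagTaTcaagaaaaca
29 nt: TaaaTaaaTgTgcagTaTcaagaaaacag
30 nt: TaaaTaaaTgTgcagTaTcaagaaaacagT
31 nt: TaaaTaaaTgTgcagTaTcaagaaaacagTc
32 nt: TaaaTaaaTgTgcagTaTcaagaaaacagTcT
33 nt: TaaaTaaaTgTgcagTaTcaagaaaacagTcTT

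These RNAs differ by 1 base each at the 3′ end, and those of 30 and 32 nt met the rule. The 30-nt locus had 450, 388 and 522 CPM in Ψ-IP, 166, 147 and 164 CPM in input and 80.1, 60.9 and 73.0 CPM in flow-through. Every Ψ-IP library was above every other library. The 29-nt locus, which lacks the last uridine, had 11.2, 8.03 and 14.4 CPM in Ψ-IP, 12.4, 9.35 and 10.1 CPM in input and 9.35, 12.3 and 9.23 CPM in flow-through, so that the 3 fractions overlapped. With cytosine added, the 31-nt locus had 121, 94.1 and 149 CPM in Ψ-IP, 91.8, 90.4 and 88.3 CPM in input and 91.6, 86.4 and 100 CPM in flow-through, and its lowest Ψ-IP level was 0.939 times the highest of the others. The 32-nt locus ends in uridine again and had 15.9, 16.4 and 21.1 CPM in Ψ-IP against 7.78, 6.40 and 7.47 CPM in input and 4.56, 3.51 and 5.31 CPM in flow-through. At 33 nt, with another uridine, the lowest Ψ-IP level was about equal to the highest of the others (ratio 1.00), on only 124 Ψ-IP counts. A 37-nt locus at this 5′ end, not printed, ends in TTT, holds 12 uridines (32.4%) and did not meet the rule.

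**Figure D1:**
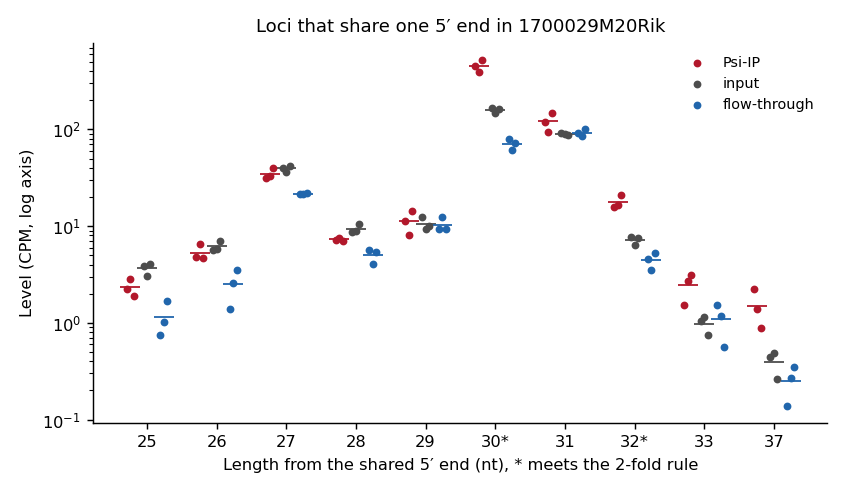
Level in CPM on a log axis of the 10 loci with 60 or more Ψ-IP counts that start at chr4:135628990 in 1700029M20Rik, by length in nt. Points are the 3 libraries of Ψ-IP, input and flow-through, short lines their means, and an asterisk marks the lengths of 30 and 32 nt, at which every Ψ-IP point is at least 2 times every other point.

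Further exon loci are printed for the range of levels and of bound fractions. Locus A (chr7:125329852-125329881, minus strand, 4933440M02Rik) and locus B (chr5:114839321-114839350, minus strand, MYSERV6-int repeat in Gm13821) were the noncoding exon loci with the largest ratios. Locus C (chr7:73825636-73825665, plus strand, Gm21269) was among the most abundant. Locus D (chr5:113325033-113325062, minus strand, antisense to an exon of Gm43353, in an MTEa repeat) was lower after CMC. Locus E (chr7:73824992-73825021, plus strand, Gm21269) did not meet the rule and had most Ψ-IP counts among such exon loci.
Locus A: TaTcaTTaTgccTTTTcTTcccTacagaTT
Locus B: TaTTaaTaccccTagcccTaTTTTgTagTT
Locus C: TaTTaTTTagaaagTTaccacccTccaagT
Locus D: TTgTTTTTTTaTTTgTTcTggggcgTTagc
Locus E: TaTgTgaaTTTcaacTgTTggcTccacagg

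All 5 start with uridine, and loci A, B and C also end in it. Locus A had 204, 196 and 153 CPM in Ψ-IP, 29.5, 32.2 and 33.4 CPM in input and 7.82, 13.3 and 8.88 CPM in flow-through. Its lowest Ψ-IP library was thus 4.59 times its highest other library. Locus B, in an ERVK endogenous retrovirus, had 2.91, 4.06 and 3.22 CPM in Ψ-IP and at most 0.583 CPM elsewhere. Locus C, in the noncoding RNA gene Gm21269, had 262, 290 and 264 CPM in Ψ-IP, 46.0, 53.6 and 53.6 CPM in input and 96.2, 62.4 and 49.6 CPM in flow-through. Its flow-through levels overlapped its input levels. Locus E, in the same gene, had 794, 589 and 710 CPM in Ψ-IP, below all 3 input libraries (1081, 848 and 1135 CPM).

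Together the Ψ-bound loci held 5.78%, 5.70% and 5.73% of the counts of the Ψ-IP libraries, 1.73%, 1.83% and 1.75% of input and 0.817%, 0.994% and 0.928% of flow-through. Each Ψ-IP library was well above every input library, as the rule requires. The other loci with 60 or more Ψ-IP counts held 65.1% ± 1.19 of Ψ-IP, 61.4% ± 0.796 of input and 60.9% ± 0.472 of flow-through (SD, n = 3 each). The median Ψ-bound locus had 4.00 CPM in Ψ-IP, 1.11 CPM in input and 0.532 CPM in flow-through. The other loci had medians of 2.63, 2.25 and 2.29 CPM. Levels of Ψ-bound loci reached from 1.16 to 795 CPM in Ψ-IP.

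**Figure D2:**
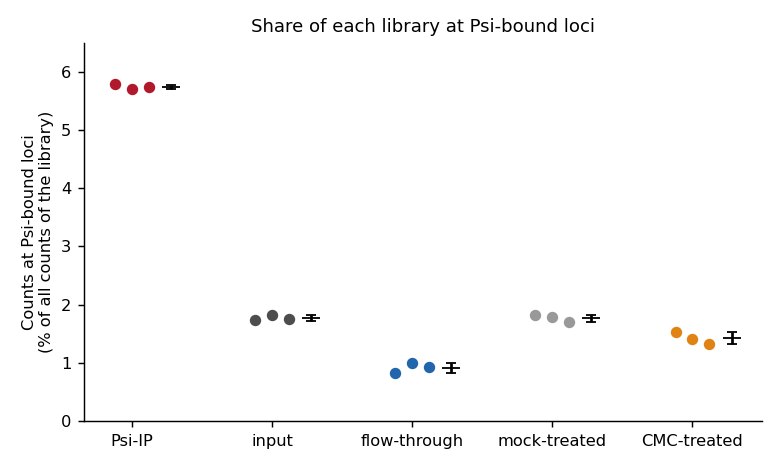
Counts at the 5210 Ψ-bound loci as a percentage of all counts of each of the 15 libraries (coloured points), with the mean and SD of the 3 libraries of a group in black. Ψ-IP libraries lie at 5.70 to 5.78% and flow-through libraries below 1%, and the CMC-treated libraries (1.32 to 1.53%) lie below the mock-treated libraries (1.70 to 1.82%).

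Most Ψ-bound loci were close to the limit. The median ratio of the lowest Ψ-IP to the highest other level was 2.37, and 61.5% of the loci were under 2.5. A ratio of 3 or more was found at 744 loci, of 4 or more at 139 and of 5 or more at 31, with a maximum of 7.39. The level that set the ratio was an input library at most loci, namely input 2 at 33.8%, input 1 at 24.4% and input 3 at 24.1%. Just inside the limit, among others, was chr12:98398081-98398110 on the minus strand, with 2.40, 3.11 and 2.17 CPM in Ψ-IP and at most 1.09 CPM elsewhere. Just outside was chr2:151322405-151322434 on the plus strand, with 2.65, 3.11 and 2.72 CPM in Ψ-IP and at most 1.33 CPM elsewhere. Without a 2-fold minimum, every Ψ-IP library was above every other library at 26.4% of loci with 60 or more counts.

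**Figure D3:**
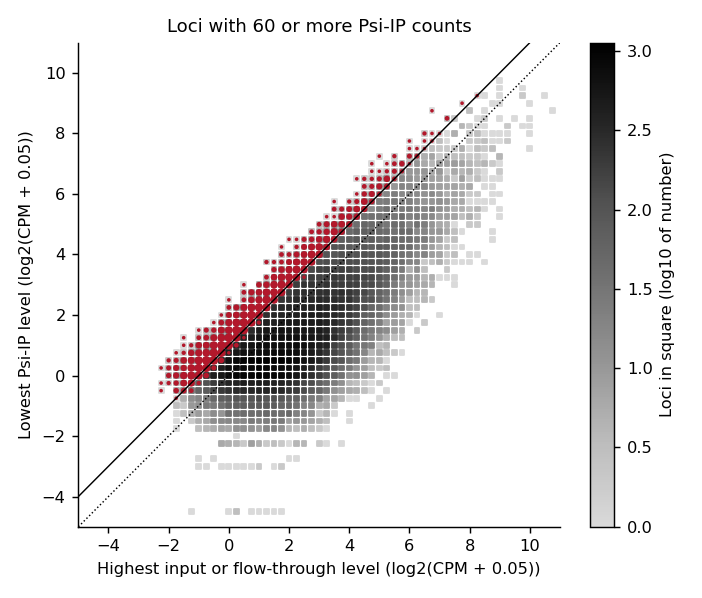
Lowest Ψ-IP level against the highest input or flow-through level, both as log2(CPM + 0.05), of the 114954 loci with 60 or more Ψ-IP counts, in squares of 0.25. Grey gives the number of loci in a square on a log10 scale and red dots, larger for more loci, the 5210 Ψ-bound loci, which lie along and above the solid 2-fold line. The dotted line marks equal levels.

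As a description of the replicates, which uses the same 9 libraries, loci were also chosen on 2 replicate numbers and looked up in the third, which gives other sets than the 5210 loci. With number 1, 2 or 3 held out, 9695, 11565 and 7646 loci were chosen. Of these 73.6%, 67.3% and 74.6% were at least 2-fold higher in the held-out Ψ-IP library than in the held-out input and flow-through libraries, and 95.3%, 95.2% and 97.5% were higher at all. Among the loci not chosen, 12.5%, 10.9% and 12.8% were at least 2-fold higher.

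The largest ratio was at a 35-nt locus in an intron of Gm12648 (chr4:94320416-94320450, minus strand), with 2.65, 3.46 and 2.92 CPM in Ψ-IP, 0.359, 0.241 and 0.265 CPM in input and 0, 0.162 and 0.350 CPM in flow-through. In an intron of Cyp19a1, the aromatase gene, chr9:54218235-54218265 (minus strand) had 14.6, 16.2 and 16.5 CPM in Ψ-IP, 2.03, 2.53 and 2.33 CPM in input and 1.12, 1.08 and 1.47 CPM in flow-through, a ratio of 5.74. Neither locus had more than 20 counts in the CMC set. A MurERV4 locus at chr5:113352123-113352153 (plus strand), from an ERVK retrovirus, had 55.4, 55.7 and 62.4 CPM in Ψ-IP, 10.97, 9.17 and 10.3 CPM in input and 11.3, 9.71 and 9.09 CPM in flow-through. At these 3 loci the Ψ-IP libraries differed little from each other and none came near the other fractions. The other 7 loci with the largest ratios, 1 per overlapping group, had between 74 and 1456 Ψ-IP counts and ratios of 4.89 to 5.81.

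The most abundant Ψ-bound locus lay on chr17:66211442-66211470 (plus strand, outside genes and repeats). It had 876, 785 and 723 CPM in Ψ-IP, 286, 319 and 270 CPM in input and 68.1, 113 and 111 CPM in flow-through. On chromosome 5, chr5:113349063-113349093 (plus strand) had 548, 578 and 542 CPM in Ψ-IP, 169, 226 and 161 CPM in input and 49.3, 75.4 and 85.6 CPM in flow-through. In an intron of 1700121C08Rik, chr4:123836048-123836076 (minus strand) had 410, 428 and 518 CPM in Ψ-IP and at most 153 CPM in input and 84.2 CPM in flow-through. At all 3, flow-through was below input, which was below Ψ-IP. Input and flow-through overlapped at chr5:113330067-113330096 (minus strand), with 433, 476 and 447 CPM in Ψ-IP, 76.9, 126 and 77.1 CPM in input and 128, 104 and 92.8 CPM in flow-through. An L2c element, of an old LINE family, held chr6:127788939-127788968 (minus strand), with 428, 484 and 452 CPM in Ψ-IP, 177, 169 and 157 CPM in input and 37.5, 68.5 and 68.2 CPM in flow-through.

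Over all Ψ-bound loci, mean Ψ-IP was a median of 3.53 times input (5th to 95th percentile 2.55 to 6.05) and 7.44 times flow-through (3.18 to 33.4, leaving out loci with no flow-through count). For the other loci the medians were 1.41 and 1.31. Flow-through against input had a median ratio of 0.476 at Ψ-bound loci and 0.860 at the others. Every flow-through library was below every input library at 2932 Ψ-bound loci (56.3%), against 38.9% of all loci with 60 or more Ψ-IP counts, and above at 87 (1.67%), against 28.5%. As the rule limits flow-through and input alike, these shares are a description. All 3 flow-through libraries had no count at 67 Ψ-bound loci, and none of the loci had no count in all 3 input libraries. The Ψ-IP libraries varied by a median coefficient of variation of 15.8% at Ψ-bound loci and 24.6% at other loci, which a rule on the lowest Ψ-IP library favours.

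The Ψ-bound loci lay in 2370 groups of overlapping loci on one strand, of which 1283 were single loci and the largest held 34. They had 3875 different 5′ ends. At 2685 of these ends, other loci with 60 or more Ψ-IP counts started too, and the Ψ-bound loci were longer on average at 1595 ends and shorter at 824, with a median difference of 1 nt. Loci that overlap or share an end share part of their sequence and are not independent.

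The Ψ-bound loci had a mean length of 30.1 nt and the others of 29.4 nt. Lengths of 29 to 31 nt, typical of piRNAs of the PIWI protein MIWI, made up 74.7% of Ψ-bound loci and 67.7% of the others, and lengths of 32 to 33 nt 12.8% and 7.93%. Lengths of 24 to 28 nt, which include the typical length of MILI piRNAs, made up 11.6% and 23.03%. The share of loci that met the rule was 0.583% at 24 nt, 1.74% at 26 nt, 3.19% at 28 nt, 5.09% at 30 nt and 7.22% at 32 nt.

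Most Ψ-bound loci were outside repeats (4411 loci, 84.7%, against 86.2% of the others). LTR retroelements held 401 loci (7.70% against 7.23%), LINEs 281 (5.39% against 3.64%), DNA transposons 58 (1.11% against 0.873%) and SINEs 59 (1.13% against 2.02%). Of all LINE loci with 60 or more Ψ-IP counts 6.57% were Ψ-bound, and of all SINE loci 2.59%, around the 4.53% over all loci. The L1 family, which still moves in the mouse genome, had 242 Ψ-bound loci (6.97% of its loci with 60 or more Ψ-IP counts) and ERVK 169 (6.46%). The elements with most were MurERV4 with 62 (7.24%), L1M2 with 36 (9.60%) and Lx9 with 30 (9.29%). High shares were found in small elements, with 16 of the 100 loci in Lx11 and 21 loci (15.1%) in RLTR13D2.

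The Ψ-bound loci lay in 124 of the 230 piRNA clusters, of 647 listed by the study, that held loci with 60 or more Ψ-IP counts. The authors had intersected the reads with clusters, so lying inside one is no trait of the Ψ-bound loci. The 5 clusters with most Ψ-bound loci held 1529 (29.3%). The first was chr12:98369021-98458701 with 346 Ψ-bound loci (6.04% of its loci with 60 or more Ψ-IP counts), whose summed level was 3884, 3742 and 3923 CPM in Ψ-IP, 1190, 1229 and 1224 CPM in input and 477, 660 and 596 CPM in flow-through. It was followed by chr18:67026089-67102906 with 331 loci (5.55%), chr9:67687024-67773986 with 305 (4.38%), chr7:73759085-73850982 with 286 (4.99%) and chr4:94274240-94334233 with 261 (7.15%). Among the 39 clusters with at least 500 loci of 60 or more Ψ-IP counts, the share of Ψ-bound loci ran from 1.59% to 10.6% (median 4.21%). The share was low in chr17:27269742-27371971, where 217 of 9764 loci (2.22%) were Ψ-bound.

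By GENCODE annotation, 3321 Ψ-bound loci were outside genes (63.7%, against 66.8% of the other loci), 987 in introns (18.9% against 17.3%), 388 in noncoding exons (7.45% against 8.65%) and 18 in coding sequence (0.345% against 0.334%). A further 124 were antisense to an exon (2.38% against 2.45%) and 190 antisense to an intron (3.65% against 2.83%). Untranslated exons of coding genes held 182 (3.49% against 1.64%), 9.20% of their loci with 60 or more Ψ-IP counts. On the sense strand of exons, the gene with most groups was Gm21269, the noncoding gene of loci C and E, with 29 groups and 89 loci (5.38% of its 1653 loci with 60 or more Ψ-IP counts, against 4.53% over all loci). It was followed by Gm10619 (17 groups, 32 loci, 4.48%), 1700001L05Rik (16 groups, 25 loci, 4.09%), the protein-coding Nemp1, a gene of the inner nuclear membrane (15 groups, 36 loci, 9.45%), and Gm30132 (13 groups, 33 loci, 7.5%).

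Exon sequence was available for 712 Ψ-bound loci (13.7%) and 14083 others (12.8%), which are too few to stand for all loci. In these exon loci uridine made up 40.1% of the bases of Ψ-bound loci and 31.97% of the others. Guanine made up 15.9% and 21.9%, adenine 24.5% and 26.8% and cytosine 19.4% and 19.3%. The first base was uridine in 96.2% of Ψ-bound loci and in 94.4% of the others. At the 3′ end, the last base was uridine in 69.5% of Ψ-bound loci and in 36.9% of the others. With 1 locus per group, 371 loci had 39.0% uridine and 74.4% ended in it. In loci of 29 to 31 nt, 69.7% and 37.1% ended in uridine. At the 350 ends in exons where Ψ-bound and other loci shared the 5′ end, as in the example of 1700029M20Rik, 67.4% of Ψ-bound and 32.2% of other loci ended in uridine. Not every end followed this pattern. In Gm21269, the Ψ-bound loci of 31 and 32 nt that start at chr7:73825162 end in guanine and adenine, and at the 5′ end of locus C a Ψ-bound locus of 27 nt ends in adenine.

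The share of Ψ-bound loci moved with the uridine content of the locus. Of exon loci with under 20% uridine 0.268% were Ψ-bound, of those with 30 to 35% uridine 3.81%, and of those with 45% or more 13.8%. Over the same 7 classes of uridine content the median of Ψ-IP over flow-through went from 0.496 to 7.20 and the median of flow-through over input went from 2.41 to 0.262. The median of Ψ-IP over input went less far, from 1.34 at under 20% uridine through 1.28 at 20 to 25% and 1.39 at 30 to 35% to 1.96 at 45% or more. By last base, 8.70% of exon loci that end in uridine were Ψ-bound, 3.00% of those in adenine, 1.97% in cytosine and 2.07% in guanine. Runs of uridine were frequent, with TTT in 78.5% of Ψ-bound and 46.9% of other exon loci and TTTT, which also counts among the former, in 44.7% and 17.1%. Motifs known for single Ψ synthases were searched on the sense strand of the locus only. GTTCNA, as used by TRUB1, was in 0.843% of Ψ-bound and 1.65% of other loci. TNTAA, as used by PUS7, was in 20.5% and 13.9%, and its form TNTAG in 13.1% and 12.4%. The part of uridine content in the choice of the loci was not tested.

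**Figure D4:**
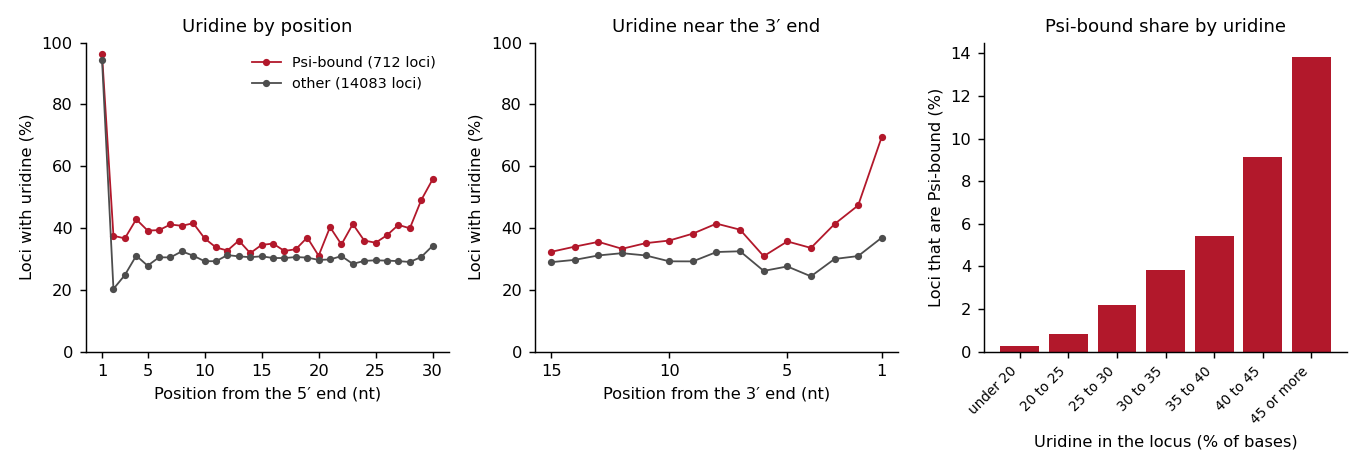
Percentage of exon loci with uridine at each position from the 5′ end (left) and from the 3′ end (middle), for 712 Ψ-bound loci (red) and 14083 other loci with 60 or more Ψ-IP counts (grey), and percentage of loci that are Ψ-bound by uridine content (right). Beyond the first base, the lines are farthest apart at the last base (69.5% against 36.9%), and the share of Ψ-bound loci goes from 0.268% to 13.8% with uridine content.

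CMC treatment, which the rule did not use, was compared with mock treatment at the Ψ-bound loci. Of the 5210 loci, 2966 had more than 20 counts over the 6 libraries of the CMC set and were tested. With the quasi-likelihood test of edgeR and a threshold of 0.01 on p-values adjusted over all 556583 loci tested (Benjamini-Hochberg), 204 fell (6.88%) against 0.654% of all loci tested, and 5 rose (0.169%) against 1.07%. With replicate number as a block, 297 fell and 7 rose, against 1.03% and 1.24% of all loci. DESeq2's Wald test called 174 lower (5.87%) and 3 higher, against 0.526% and 0.628%. Of the other loci with 60 or more Ψ-IP counts, 3.66% fell with the block and 2.24% with DESeq2. The median log2 fold change was -0.30 for Ψ-bound loci and 0.00 for all loci. Loci with 60 or more Ψ-IP counts as a whole fell in 2.49% of 83234 tests, with a median of -0.02. Among the Ψ-bound loci tested, every CMC-treated library was below every mock-treated library at 777 (26.2%), against 12.1% of all tested loci with 60 or more Ψ-IP counts. The falls that passed were of -0.48 to -2.33 on the log2 scale (median -0.78), in 133 groups and 42 clusters.

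**Figure D5:**
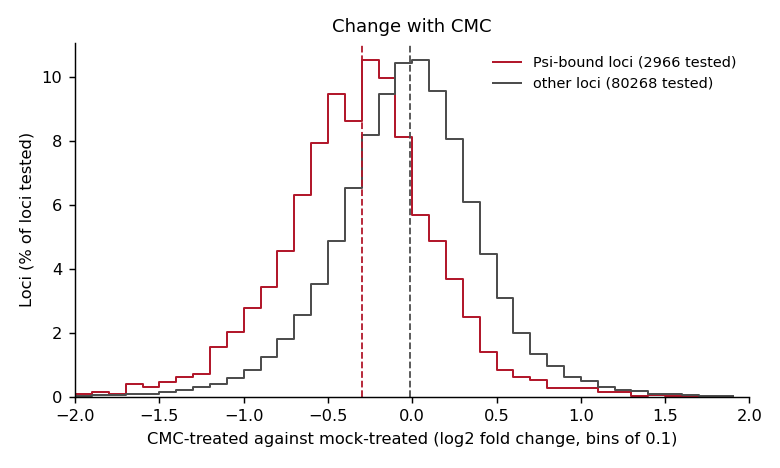
Log2 fold change of CMC-treated against mock-treated libraries in bins of 0.1, as a percentage of 2966 Ψ-bound loci (red) and 80268 other loci with 60 or more Ψ-IP counts (grey), with dashed lines at the medians of -0.30 and -0.01. The red distribution lies to the left of the grey, and 12 Ψ-bound and 225 other loci beyond 2 in either direction are not drawn.

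Calls depended on depth. Of Ψ-bound loci with more than 1000 counts in the CMC set, 148 of 564 fell (26.2%), against 6.73% of other loci of that depth, and of those with more than 20 and up to 100 counts 1 of 1160 fell (0.0862%), against 0.0434%. The median log2 fold change at these depths was -0.38 and -0.26 for Ψ-bound loci, and -0.07 and 0.01 for the others. Counts of lower loci ranged from 85 to 294 when 1 library was left out, with the fewest without mock replicate 2, the deepest library (85 of 2874, 2.96%, against 0.252% of all loci). Without mock replicate 1 they were 122 (4.09%, against 0.41% of all loci), without CMC replicate 3 125 (4.10% against 0.425%) and without CMC replicate 2 96 (3.15% against 0.256%). The most were found without CMC replicate 1 (9.84% against 0.933%). Without a filter on low counts 114 of 4937 fell (2.31% against 0.0456%). In all 33 clusters with at least 20 Ψ-bound loci tested the median log2 fold change was below 0, from -0.47 to -0.09.

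Summed over all 5210 loci, Ψ-bound loci held 1.82%, 1.78% and 1.70% of the mock-treated libraries and 1.53%, 1.41% and 1.32% of the CMC-treated libraries, which did not overlap. The other loci with 60 or more Ψ-IP counts held 62.7% ± 0.491 and 60.8% ± 1.59 (SD, n = 3 each). No count in any of the 6 libraries was found at 273 Ψ-bound loci, and 1 to 20 counts at 1971.

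Uridine content moved with the CMC change as well. Among exon loci with 45% or more uridine, the median log2 fold change was -0.61 for 105 Ψ-bound loci and -0.59 for 822 others. At 40 to 45% uridine it was -0.31 and -0.32, and at 35 to 40% it was -0.19 and -0.18. At 30 to 35% it was -0.15 for 59 Ψ-bound loci and -0.04 for the others, and at 25 to 30% it was -0.11 for 35 and 0.07. The 21 lower Ψ-bound loci with exon sequence held 49.1% uridine and 12.8% adenine, the 338 other tested ones 39.4% and 24.2%. Of these 61.9% and 70.1% ended in uridine. Exon loci that were not Ψ-bound and fell held 47.4% uridine and 16.1% adenine, and those that did not fall 30.9% and 26.8%. With 40% or more uridine, 19 of 187 Ψ-bound exon loci and 208 of 2104 others (9.89%) fell. With 45% or more, 15 of 105 and 149 of 822 (18.1%) did. By the ratio of the rule, 7.78% of loci with a ratio of 2 to 2.5 fell, 6.10% with 2.5 to 3, 3.50% with 3 to 4 and 0 of 38 with 4 or more. Of these 38, 11 (28.9%) were lower at an unadjusted p under 0.05 in edgeR, against 29.6% of all tested Ψ-bound loci and 13.2% of all tested loci with 60 or more Ψ-IP counts, and DESeq2 called 0 of the 28 for which it gave an adjusted p. The median log2 fold changes were -0.29, -0.33, -0.28 and -0.48.

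Among the most abundant Ψ-bound loci, chr17:66211442-66211470 had 1192, 1330 and 1175 CPM in mock-treated and 902, 779 and 794 CPM in CMC-treated libraries. It fell on the log2 scale by a fitted -0.64 (standard error 0.10, edgeR adjusted p = 5.08e-05), and the groups did not overlap. On chr12:98414886-98414914 (minus strand), also among the 10 most abundant, levels fell from 720, 705 and 716 CPM to 525, 442 and 418 CPM, by -0.69 (standard error 0.11, edgeR adjusted p = 2.66e-05). At the other 8 the change did not pass, with log2 fold changes of -0.58 to 0.21. One of them is the 30-nt locus of 1700029M20Rik, with 0.814, 0.839 and 0.574 CPM in mock-treated and 0.470, 0.331 and 0.768 CPM in CMC-treated libraries, which overlapped (edgeR adjusted p = 0.379). Locus A had 0.983, 0.651 and 0.499 CPM in mock-treated and 0.204, 0.373 and 0.768 CPM in CMC-treated libraries (edgeR adjusted p = 0.237). Both loci were abundant in Ψ-IP but had few counts in the CMC set, which limits the test. In mock-treated libraries the 30-nt locus had 29, 49 and 23 counts and locus A 35, 38 and 20.

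Of each overlapping group, the locus with most Ψ-IP counts was ranked, and the 10 largest falls among these were of -1.05 to -2.33 on the log2 scale. Loci with fewer counts than the first of their group were not ranked, among them chr12:98398081-98398110, named above as just inside the limit, which also fell (log2 fold change -1.22, standard error 0.15, edgeR adjusted p = 9.15e-08). Of the 10, 4 lay in the chromosome 17 cluster named above and 2 in that on chromosome 9. At chr17:27310319-27310348 (minus strand, intron of Gm49793) levels went from 85.7, 80.4 and 75.2 CPM in mock-treated to 49.0, 33.5 and 31.7 CPM in CMC-treated libraries, a fall of -1.13 (standard error 0.13, edgeR adjusted p = 6.46e-08). At chr17:27293077-27293106 (minus strand) they went from 5.95, 5.70 and 5.69 CPM to 2.72, 2.32 and 1.54 CPM. A locus in an untranslated exon of Gtf3c4, a subunit of the RNA polymerase III factor TFIIIC, at chr2:28825323-28825351 (minus strand), went from 4.91, 5.14 and 5.62 CPM to 2.96, 2.11 and 1.83 CPM. These 3 loci were lower in every CMC-treated library than in any mock-treated library, and they passed under all 11 alternative settings of the test.

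The largest fall rested on few counts. At chr17:27319773-27319803 (minus strand) levels were 0.421, 0.342 and 0.300 CPM in mock-treated and 0.0409, 0.0414 and 0.146 CPM in CMC-treated libraries (log2 fold change -2.33, standard error 0.52, edgeR adjusted p = 0.00458). The log2 fold change was -3.05 without CMC replicate 3 and -1.90 without CMC replicate 1. The call was lost without mock replicate 1 or 2 and without CMC replicate 1 or 2. At chr14:24104202-24104231 (plus strand) the mock-treated libraries themselves were spread, at 6.34, 3.39 and 1.67 CPM, against 1.25, 1.41 and 0.951 CPM in CMC-treated libraries (log2 fold change -1.70, standard error 0.26, edgeR adjusted p = 2.27e-05), and DESeq2 did not call it. Calls were also lost at both loci of the chromosome 9 cluster, at chr9:67740471-67740501 under 8 of 11 settings, the replicate block and DESeq2 among them, and at chr9:67738705-67738734 without mock replicate 1 or 2 or CMC replicate 2. The same held for chr2:92569686-92569715 under 5 settings and for chr1:91555101-91555130, in an untranslated exon of Asb1, under 4. Locus D, with the T-rich sequence printed above, fell from 6.60, 6.15 and 5.84 CPM to 3.76, 4.14 and 2.49 CPM (log2 fold change -0.89, standard error 0.16, edgeR adjusted p = 0.000264). It holds 17 uridines in 30 bases (56.7%), whereas chr7:73818680-73818709 (plus strand, Gm21269), which also fell (log2 fold change -0.64, edgeR adjusted p = 0.000558), holds 10 in 30 (33.3%).

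The 5 Ψ-bound loci that rose with CMC are named because they are few, after their values were seen. Each overlapped a locus more abundant in the CMC set that fell or did not pass the test. At chr12:98414886-98414913 (minus strand, 28 nt) the CMC set held 4, 3 and 1 counts in mock-treated and 98, 36 and 35 counts in CMC-treated libraries (log2 fold change 4.64, standard error 0.38, edgeR adjusted p = 3.35e-12). This locus starts 1 base inside the 5′ end of the abundant 29-nt locus on chromosome 12 above, which fell. At chr5:149819628-149819656 (minus strand, 29 nt), also 1 base inside the 5′ end of a longer locus, there were 2, 7 and 7 counts in mock-treated and 27, 15 and 15 in CMC-treated libraries (edgeR adjusted p = 0.000423). The longer, 30-nt locus was at 99.6, 104 and 95.4 CPM in mock-treated and 97.7, 107 and 108 CPM in CMC-treated libraries, which overlapped. At chr5:113330067-113330094 (minus strand, 28 nt) there were 3, 9 and 5 counts in mock-treated and 22, 15 and 9 in CMC-treated libraries (edgeR adjusted p = 0.00732). At chr5:113349063-113349095 (plus strand, 33 nt) there were 0, 2 and 0 counts in mock-treated and 7, 15 and 8 in CMC-treated libraries (edgeR adjusted p = 0.00059), too few for a fold. The only one of them with many counts was chr15:78663504-78663536 (minus strand, 33 nt), which rose from 11.6, 9.83 and 9.63 CPM to 18.2, 24.9 and 20.1 CPM (log2 fold change 0.95, standard error 0.13, edgeR adjusted p = 2.28e-06). It shares its 5′ end with a 31-nt locus that is not Ψ-bound by the rule and that fell (log2 fold change -0.52, standard error 0.11, edgeR adjusted p = 0.00161).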

How the data were processed

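Small RNA of 15 mouse testis libraries was analysed, 3 each of Ψ-IP, flow-through, input, CMC-treated and mock-treated RNA. The authors clipped adaptors, kept reads of 14 to 44 nt, set tRNA fragments aside, mapped the rest to mm10 with Bowtie2 allowing 3 mismatches, and intersected them with repeats and piRNA clusters using bedtools. The deposited values are raw counts per interval and strand, without normalization. Intervals were read as 0-based starts and are printed 1-based. Gene parts and exon sequence came from GENCODE M21 on GRCm38, as no genome sequence was used here, and 137 of 137 loci read from RefSeq promoter windows as well were identical. Clusters are those listed in the study's source data.

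The members and lists were chosen with earlier results of these data known. CPM is the count divided by the library total times 1e6. CMC-treated and mock-treated libraries were compared in R 4.3.3 with edgeR 4.0.16 (TMM, quasi-likelihood test, Benjamini-Hochberg adjustment, threshold 0.01) on loci with more than 20 counts over the 6 libraries, and with DESeq2 1.42.0 as an alternative. The standard error of a log2 fold change was taken as its size over the square root of F. The fit was also run on simulated counts with 200 changed loci, drawn from the levels and spread of the real counts. The outcome of this run is not given here. Replicates differed by more than sampling noise (chi-square per degree of freedom 1.73 to 6.08), so each was counted. Deviations of same-numbered CMC-treated and mock-treated libraries correlated at 0.115, 0.135 and 0.278 over 87515 loci with an average above 50 counts, but at 0.0306, 0.0485 and 0.116 above 10 counts, so the numbers were treated as a possible pairing. Neither labels nor methods say what an equal number marks.

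Lists by ratio, Ψ-IP counts and CMC change took 1 locus per group of overlapping loci, that with most Ψ-IP counts. Named loci were the 10 with the largest ratio, the 10 with most Ψ-IP counts and up to 10 past the CMC threshold in each direction. Also named were 5 on either side of the 2-fold limit, which were not always the locus with most Ψ-IP counts of a group. The 5 clusters and 5 genes with most loci or groups were named too. Loci whose sequence is printed and the 5 that rose with CMC were added after values were seen. Alternatives were other folds, count minimums, library sizes and fractions for the rule, other fits for CMC, and leaving out each library.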

Additional observations from a re-analysis of the deposited data

How the results depend on the processing

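With TMM library sizes 3610 loci met the rule, of which 3562 are among the 5210 Ψ-bound loci, and with lengths of 24 to 33 nt only 5163 did. At 1.5-fold there were 13101 loci, at 3-fold 744, against input only 12356 and against flow-through only 27297. Leaving out 1 of the 9 libraries gave 5507 to 8106. Of the loci chosen on 2 replicate numbers, which are other sets than the 5210, 71.8% on average were 2-fold higher in the third, and 67.3% with number 2 held out.

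Loci lower with CMC were 204 of 2966 tested (6.88%, against 0.654% of all loci). Without a filter on low counts they became 114 of 4937 (2.31% against 0.0456%). They were 10 of 324 at 3-fold (3.09%) and 93 of 1453 with 1 locus per overlapping group (6.40%). Of all tested loci with the minimum Ψ-IP counts of the rule, 2.49% were lower, so the share at 3-fold was near this background. Leaving out 1 library gave 85 to 294 loci lower and 3 to 7 higher, while 0.252% to 0.933% of all loci were lower and 0.610% to 0.999% higher. Those higher were 5, and 2 with more than 100 counts, 3 with DESeq2's Wald test, and 0 at 3-fold and with 1 locus per group. For these last, fewer loci were counted by construction. With replicate number as a block, 297 were lower and 7 higher, a pairing that the labels do not state. The median log2 fold change of the Ψ-bound loci was below 0 in every setting run, between -0.26 and -0.38. Single pairs of libraries were spread more widely. The median log2 ratio in CPM went from -0.04 (CMC replicate 2 against mock replicate 3) to -0.45 (CMC replicate 3 against mock replicate 1). DESeq2's Wald test called 174 lower.

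Low depth limits the test, since 2244 of the 5210 loci had 20 counts or fewer in the CMC set, and a locus with few counts was rarely called. Sequence was at hand for 13.7% of the loci only. Ψ-IP, input and flow-through levels are shares of a library and do not give the amount of RNA in a fraction.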

Other observations

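piRNAs made by reciprocal cutting of opposite strands overlap by 10 nt at their 5′ ends. Among loci with 60 or more Ψ-IP counts, 110 Ψ-bound loci (2.11%) had an opposite-strand partner at an overlap of 10 nt, against 3.03% of the other loci. At the other overlaps from 1 to 20 nt the shares were between 0.154% and 0.691% of Ψ-bound loci. Adenine at base 10, the usual partner of a first uridine in such pairs, was found in 25.4% of Ψ-bound exon loci and in 28.5% of the others.

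By repeat class, the median log2 fold change with CMC was -0.41 at Ψ-bound LINE loci and -0.14 at other LINE loci, and 12 of 164 (7.32%) and 165 of 2912 (5.67%) fell. At LTR loci it was -0.29 and -0.01, and 17 of 235 (7.23%) and 116 of 5742 (2.02%) fell. At SINE loci it was -0.25 and 0.03, and 1 of 30 and 15 of 1689 fell. At DNA transposon loci it was -0.14 and -0.06, and 2 of 34 and 7 of 687 fell. By length, the median was -0.15 at Ψ-bound loci of 24 to 28 nt, -0.33 at 29 to 31 nt and -0.33 at 32 to 33 nt, and 0.06, -0.04 and -0.08 at the others.

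The cluster with most Ψ-bound loci lower with CMC was chr4:94274240-94334233, with 23 of 160 tested (14.4%, against 4.62% of its other loci), followed by chr2:92515043-92616945 with 18 of 147 (12.2% against 2.43%). Over all clusters 6.88% of Ψ-bound loci tested were lower and 2.49% of loci with 60 or more Ψ-IP counts.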
